A study of Oryctolagus cuniculus with 6 samples.

Results

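SAA3, a serum amyloid A protein, and FPR2, a formyl peptide receptor that binds it, were examined in rabbit retina with and without proliferative vitreoretinopathy (PVR), a scarring disease in which membranes grow on the retina. They are 2 of the 28788 genes in the files, found by their symbol, and both were chosen by the measured values themselves, because they were nearly absent or low in the normal samples and high in the PVR samples. Their difference between the groups is therefore given as a description and was not tested.

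The series holds 3 normal and 3 PVR retina samples from adult rabbits. For the PVR model the sclera was punctured, some vitreous was drawn off, and platelet-rich plasma was injected into the vitreous cavity. The strain, sex and ages of the animals, the time from injection to collection, and whether the normal eyes had any operation are not given in the sources used here, nor is it said whether each sample is a separate rabbit, so the spread between samples may be partly technical. Polyadenylated RNA was sequenced, and total counts per sample were between 31904593 and 43035080.

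Serum amyloid A proteins are small apolipoproteins that are made in large amounts in the acute-phase response, the reaction of the body to injury and infection. Most of the circulating protein comes from the liver, whereas SAA3 is known for expression outside the liver, for example in macrophages and epithelia. Interleukin-1, interleukin-6 and tumour necrosis factor induce these genes through NF-kB, C/EBP factors and STAT3. FPR2 is a G protein-coupled receptor of neutrophils, monocytes and microglia that also binds annexin A1 and the lipid mediator lipoxin A4, and it can drive cell migration or the resolution of inflammation depending on its ligand.

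The tissue was checked against its markers before the results. The photoreceptor gene SAG, which encodes the arrestin of rods, was abundant in every sample, at 3282 ± 517 CPM (counts relative to the library size after TMM scaling; SD, n = 3) in normal and 3069 ± 255 CPM (SD, n = 3) in PVR. The 9 matched photoreceptor genes together were lower in PVR, with sums of 41259 to 48454 CPM in normal and 29149 to 40084 CPM in PVR. All 9 were fitted lower, as were 9551 of the 18697 genes tested. Normal replicate 2 stood apart in lens genes, whose summed level was 32725 CPM there, 12.2 and 15.6 CPM in the other normal samples and 262 to 300.2 CPM in the PVR samples. Values for SAA3 and FPR2 without that sample are given below. In bulk tissue, more cells of a type and more RNA per cell cannot be told apart.

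SAA3 was low in the normal retinas and among the more abundant genes in the PVR retinas. It had 52, 48 and 3 counts in normal replicates 1, 2 and 3, and 805, 1129 and 857 counts in PVR replicates 1, 2 and 3. Every PVR sample lay far above every normal sample, and the lowest PVR level in CPM was 14.5 times the highest normal level. The normal samples differed among themselves, since the 3 counts of normal replicate 3 have an exact Poisson 95% interval of 0.62 to 8.77 counts, which lies below those of normal replicate 1 (38.8 to 68.2) and normal replicate 2 (35.4 to 63.6). These intervals cover counting error only.

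Per unit of length, SAA3 had an FPKM (a count scaled to gene length and library size) of 2.85, 2.51 and 0.16 in the normal samples and of 53.9, 74.5 and 42.6 in the PVR samples. The means were 1.84 ± 1.47 FPKM (SD, n = 3) in normal and 57.0 ± 16.2 FPKM (SD, n = 3) in PVR, a ratio of 31.0. Ranked by FPKM among the 28788 genes, SAA3 stood at positions 929, 573 and 1352 in the PVR samples and at positions 10167, 10638 and 17501 in the normal samples. In PVR 95.3% to 98.0% of genes lay below it, and in normal 39.2% to 64.7%. For scale, the housekeeping gene GAPDH was at 2792 ± 269.8 FPKM (SD, n = 3) in PVR and 3470 ± 249 FPKM (SD, n = 3) in normal. The fitted log2 fold change was 4.86 (standard error 0.74). Leaving out normal replicate 2 gave 5.18, and leaving out normal replicate 3, the sample with 3 counts, gave 4.32.

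FPR2 was at the limit of detection in the normal retinas and low but clearly present in the PVR retinas. It had 2, 1 and 0 counts in normal replicates 1, 2 and 3 and 50, 48 and 60 counts in the PVR samples. The groups did not overlap. The 158 counts of the PVR samples against the 3 counts of the normal samples gave a depth-adjusted ratio of 56.1, with an exact 95% counting interval of 18.9 to 275. In FPKM, FPR2 was at 0.0148, 0.00708 and 0 in the normal samples and at 0.453, 0.429 and 0.403 in the PVR samples. The PVR mean of 0.428 ± 0.025 FPKM (SD, n = 3) placed FPR2 at positions 15501 to 15930 of the 28788 genes.

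The fitted log2 fold change of FPR2 was 5.64 (standard error 0.69) and also 5.64 without normal replicate 2, but with so few normal counts it depends on the prior count of the fit. Both genes passed the filter on low counts, and both could pass it through the PVR samples alone. For SAA3 and FPR2 alike all PVR samples were above all normal samples, as was the case for 13.4% of the 18697 genes tested. The rule used this contrast, so nothing is read from that.

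**Figure D1:**
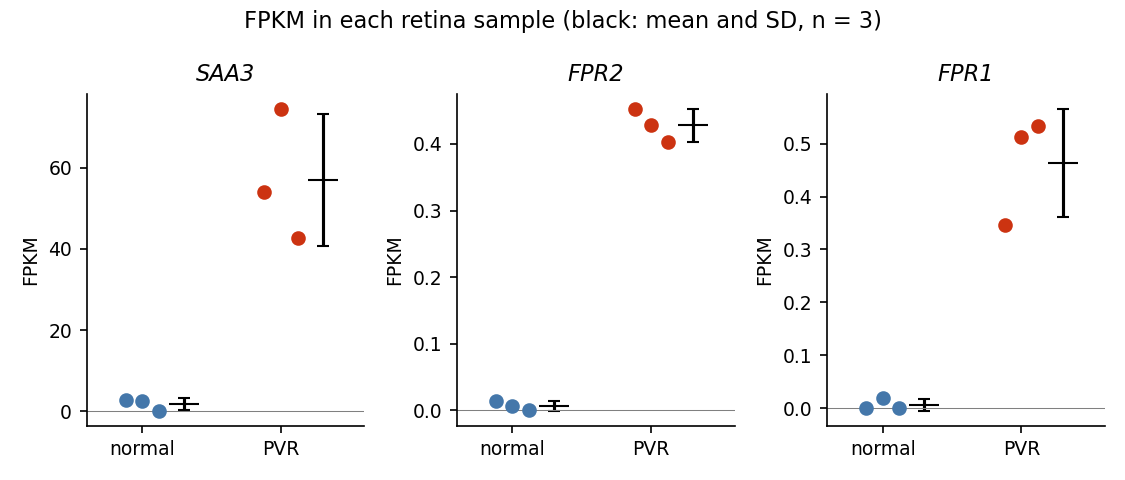
FPKM (y axis, linear, a scale of its own in each panel) of SAA3, FPR2 and the neighbouring receptor gene FPR1 in the 3 normal (blue) and 3 PVR (red) retina samples, with the mean and SD in black. PVR samples lie between 42.6 and 74.5 FPKM for SAA3 and between 0.403 and 0.453 FPKM for FPR2, and no normal sample is above 2.85 FPKM in any panel.

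SAA3 varied with a coefficient of variation of 27.1% in CPM, against 3.28% for counting error, with replicate 2 highest at 33.6 CPM and replicate 3 lowest at 19.7 CPM. FPR2 had a coefficient of variation of 5.18%, which is below the 13.8% that counting alone would give, with 1.53, 1.43 and 1.38 CPM. At the depth of FPR2 its spread between samples cannot be read, so the evenness of SAA3 and FPR2 was not compared. Per length, the SAA3 level was 119, 174 and 106 times that of FPR2 in PVR replicates 1, 2 and 3.

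Other genes of the serum amyloid A and FPR2 pathway were taken from 7 lists by their known role. The lists were drawn up with earlier results of these data known, so their shares are a description. Of 98 matched genes 74 passed the filter on low counts, and 8 of these (10.8%) rose in PVR in edgeR's quasi-likelihood test, for which a log2 fold change over 1 and an adjusted p under 0.05 were required. Over all 18697 genes, 0.69% rose and 0.316% fell by the same thresholds. The 8 genes were CP, ITIH3, FPR1, STAT3, SOCS3, CEBPD, NFKBIZ and CXCL8. Over all genes tested, 21.2% had an unadjusted p under 0.05 in either direction, and 48.9% were fitted higher. None of the 74 fell, with 1 lower at an unadjusted p under 0.05 and 0 called lower by DESeq2 and by limma-voom. The median log2 fold change of the 74 was 0.51, against -0.01 for all genes tested. The number that rose depended on single samples and on the tool. It was 3 without PVR replicate 1 (16 of all genes), 4 without normal replicate 1, 5 without PVR replicate 2 and 17 with DESeq2 (519 of all genes).

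**Figure D2:**
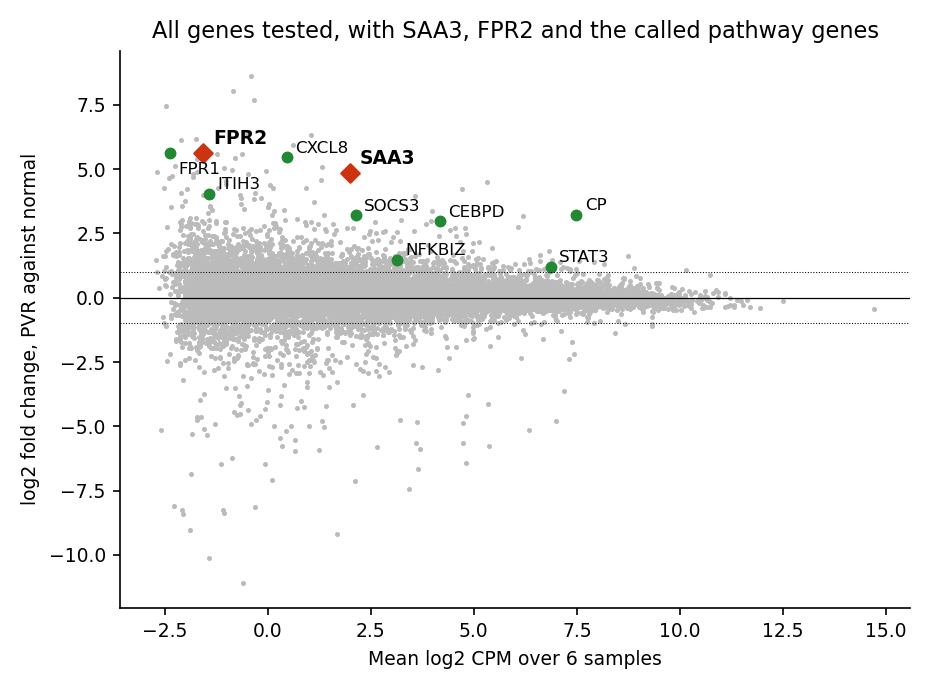
log2 fold change in PVR (y axis) against the mean log2 CPM over 6 samples (x axis) for the 18697 genes tested (grey), with SAA3 and FPR2 as red diamonds and the 8 pathway genes that rose in green. Dotted lines mark a log2 fold change of 1 and -1. FPR2 and FPR1 lie at the low end of expression and CP at the high end, with SAA3 between them at a log2 fold change of 4.86.

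Among the matched acute-phase genes, SAA3 had the second highest mean level per length in PVR, after CP. SAA4, ORM2, SERPINA1, LRG1, CFB and A2M were not matched, so they have no place in this order. Ceruloplasmin, the copper-carrying ferroxidase encoded by CP, went from 15.6 ± 1.11 to 155 ± 3.65 FPKM (SD, n = 3 in each group). Haptoglobin (HP), which binds free haemoglobin, was the third with 24.9, 7.22 and 46.0 FPKM in PVR, and these values overlapped those of the normal samples at a mean of 11.8 ± 5.67 FPKM (SD, n = 3). In PVR replicate 3 HP was above SAA3, with 46.0 and 42.6 FPKM. Complement C3 followed with 6.01 ± 2.27 FPKM (SD, n = 3), and every other matched acute-phase gene was at a mean under 1 FPKM in PVR. The order rests on the gene lengths behind the FPKM, 468 bases for SAA3 and 1224 for HP. In CPM, the PVR mean of HP was above that of SAA3 (31.4 against 26.0).

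Of the 25 acute-phase symbols, SAA1 and SAA2 share 1 entry, 18 entries were matched and 8 were tested. CP and ITIH3 rose, 25% of the tested entries against 0.69% of all genes tested. The log2 fold change of CP was 3.23 ± 0.10 (SE), with an adjusted p of 3.45e-05 from edgeR. ITIH3, a heavy chain of the inter-alpha-trypsin inhibitors that bind hyaluronan, had 2, 2 and 4 counts in normal and 34, 25 and 76 counts in PVR (log2 fold change 4.05 ± 0.59 (SE), adjusted p = 0.0292). It was not past the thresholds in 6 of 14 other settings, among them the fits without normal replicate 1, normal replicate 2 or PVR replicate 1, and the adjusted p reached 0.158. PTX3, ORM1, HP, ITIH4 and C3 had fitted log2 fold changes of 1.52, 1.41, 1.09, 0.89 and 0.26, and HPX had -0.72, none with an adjusted p under 0.2.

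The other serum amyloid A genes were near 0. The locus that RefSeq lists under the synonyms SAA1 and SAA2 had 0 counts in all normal samples and 0, 14 and 5 counts in PVR replicates 1, 2 and 3, and it did not pass the filter. CRP, the classic liver acute-phase protein, had 9, 5 and 0 counts in normal and 0 in every PVR sample. APCS, FGA and FGG, all made by the liver, had no count in any sample, which allows up to 3 counts per sample (the one-sided 95% limit of a count of 0). Members of the serum amyloid A family are close copies of each other, so reads of SAA3 and of its relatives could be lost or shared in counting. Its count is uncertain in that respect.

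FPR1 was the receptor gene that rose. This receptor for bacterial and mitochondrial formyl peptides, of the same family as FPR2, had 0, 1 and 0 counts in normal and 14, 21 and 29 counts in PVR. The depth-adjusted ratio of its summed counts was 68.2, with an exact 95% counting interval of 11.8 to 2735. Its adjusted p was 0.0382 in edgeR's test of all samples, but up to 0.189 in other settings, and it passed the thresholds in 5 of 13. Without any single sample it did not pass, and DESeq2 gave it no adjusted p. In PVR, FPR2 and FPR1 had nearly equal levels per length, 0.428 ± 0.025 and 0.464 ± 0.102 FPKM (SD, n = 3 in each), and FPR2 was higher in replicate 1 and lower in replicates 2 and 3. Their order is within the spread between samples.

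Among the matched receptors linked to serum amyloid A, FPR2 and FPR1 had the lowest mean levels per length in PVR. However, FPR1 and P2RX7, the next gene up, differed by less than the sum of their SDs. FPR3 and AGER were not matched. The scavenger receptor SCARB1, which takes up lipid from HDL, was highest at 93.4 ± 5.59 FPKM (SD, n = 3), followed by SCARB2, a lysosomal membrane protein, at 34.9 ± 1.07 FPKM (SD, n = 3). The fatty acid receptor CD36 was at 3.92 ± 0.931 FPKM (SD, n = 3), CD14 at 2.91 ± 0.328, LY96 at 1.84 ± 0.709, TLR2 at 1.15 ± 0.171, TLR4 at 0.975 ± 0.237 and P2RX7 at 0.718 ± 0.20 FPKM. From LY96 downwards, each gene differed from the next by less than the sum of their SDs, as did CD36 and CD14, so that part of the order is not firm. In each PVR sample FPR2 and FPR1 were nevertheless below the lowest P2RX7 value of 0.599 FPKM. The order also rests on the gene lengths behind the FPKM, 764 bases for SCARB1 and 4230 for SCARB2. In CPM, the PVR mean of SCARB2 was above that of SCARB1 (144 against 69.7), and FPR2 was near LY96 (1.45 and 1.46).

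Of the 9 receptor genes tested, 1 rose (11.1%, against 0.69% of all genes tested). At an unadjusted p under 0.05 there were 5 (55.6%, against 21.2%). All PVR samples lay above all normal samples for 4 and below them for 1, against 2504 and 2730 of all 18697. CD36 and TLR4, the receptor for bacterial endotoxin, were higher in every PVR sample, with log2 fold changes of 1.34 and 1.20 and adjusted p of 0.0859 and 0.0867 from edgeR. CD14, the co-receptor of TLR4, was also higher in every PVR sample, by 0.97 in log2 (adjusted p = 0.126). SCARB2 was lower in every PVR sample, with 43.3 ± 3.73 FPKM in normal and 34.9 ± 1.07 FPKM in PVR (SD, n = 3 in each), a log2 fold change of -0.38 (adjusted p = 0.0638, unadjusted p = 0.00155). The fitted values of TLR2, LY96, P2RX7 and SCARB1 were between -0.27 and 0.09 in log2.

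None of the 8 tested genes of the other FPR2 ligands and of lipoxin synthesis was past the thresholds with edgeR, DESeq2 or limma-voom, and 0 had an unadjusted p under 0.05. ANXA1, which encodes the anti-inflammatory ligand annexin A1, had 72, 299 and 134 counts in normal and 273, 268 and 379 in PVR. All PVR samples lay above all normal samples in CPM, as for 13.4% of all genes tested, but normal replicate 2 was close to the PVR samples. The fitted difference was 0.95 ± 0.46 (SE) in log2 (adjusted p = 0.278 from edgeR). CAMP, the gene of the peptide ligand cathelicidin, had at most 8 counts in any sample, and ALOX15, a lipoxin-forming lipoxygenase, at most 2.

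The signalling genes below FPR2 were also not past the thresholds in edgeR. Of 18 tested, 0 were called by edgeR or limma-voom, 1 by DESeq2, and 3 (16.7%) had an unadjusted p under 0.05, all higher in PVR. Of all genes tested, 11.3% were higher at such a p and 21.2% had it in either direction. NCF1, a cytosolic subunit of the phagocyte NADPH oxidase, had the largest fitted change, with 11, 37 and 11 counts in normal and 62, 101 and 52 in PVR (log2 fold change 1.999 ± 0.61 (SE), adjusted p = 0.131). PIK3R5, a regulatory subunit of the PI3-kinase that G protein-coupled receptors activate, and DOCK2, an activator of Rac in leukocytes, had log2 fold changes of 1.58 and 0.88 (adjusted p = 0.165 and 0.141). CYBB, the catalytic subunit of the oxidase, had 0.70 (adjusted p = 0.322), and GNB1, a G protein beta subunit that is abundant in photoreceptors, had -0.36 (adjusted p = 0.246).

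**Figure D3:**
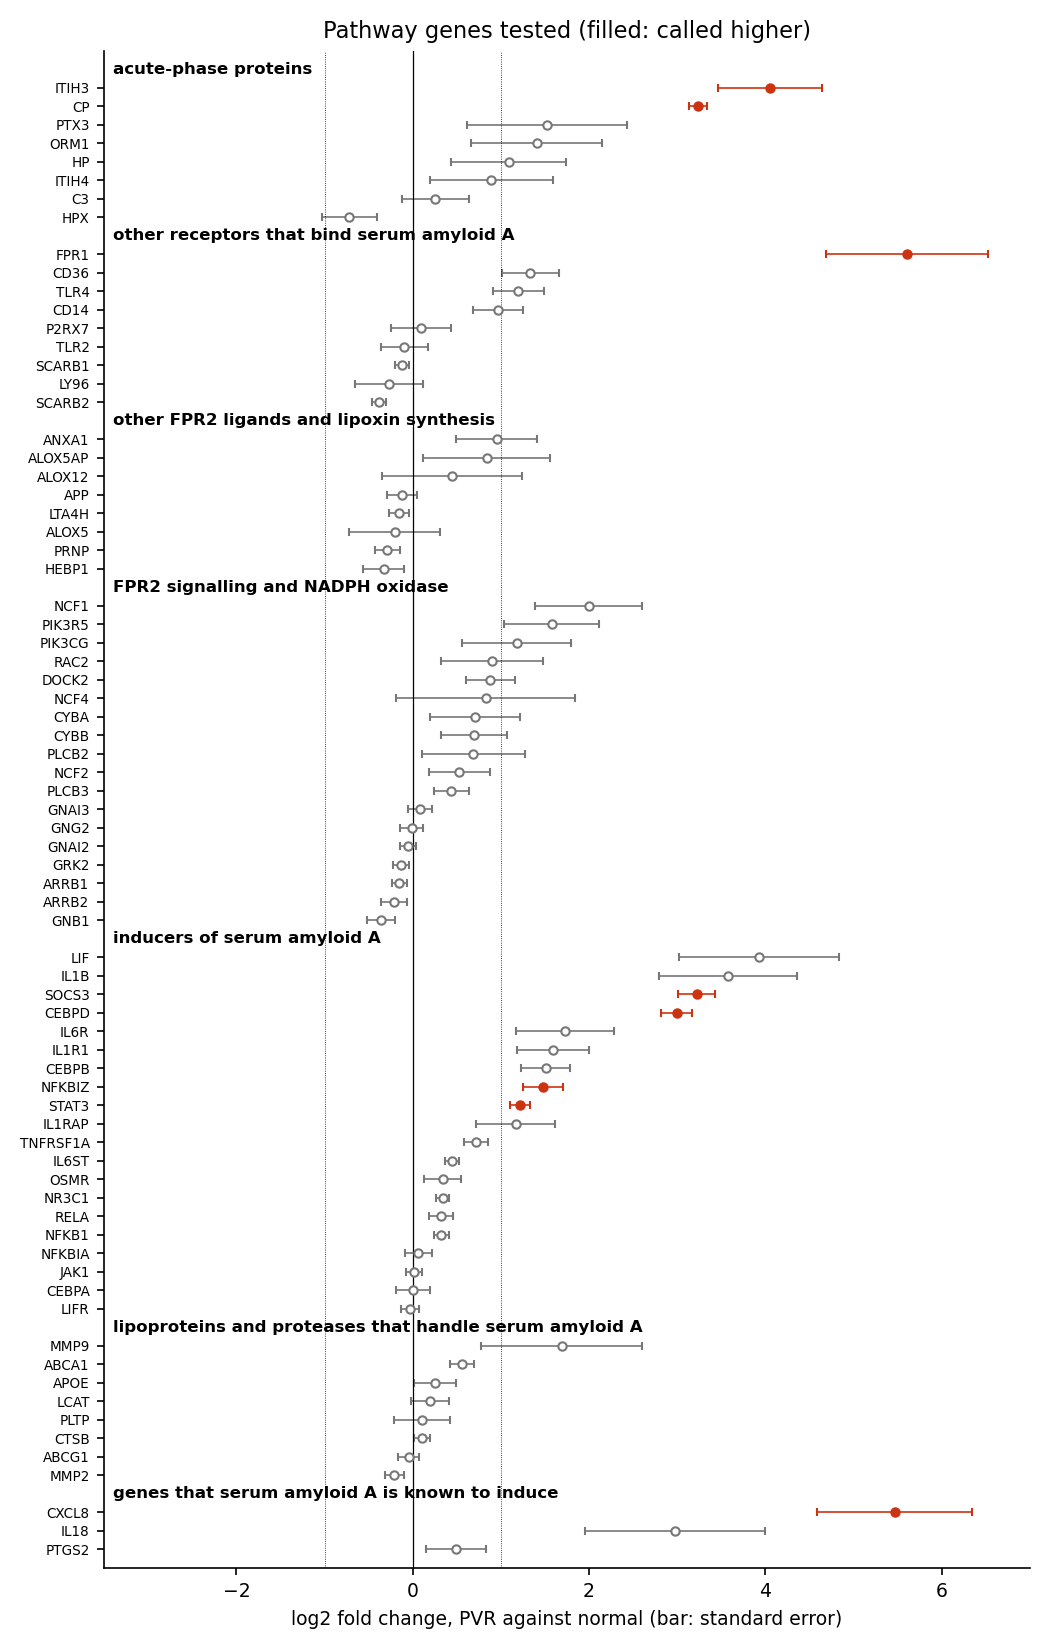
log2 fold change in PVR (x axis, bars are the standard error) of the 74 tested genes in the 7 pathway lists, each on its own line, with filled red points for the 8 that rose. Genes of the list of serum amyloid A inducers, which includes receptors and feedback inhibitors, lie mostly to the right of 0, with 19 of 20 fitted above it. Dotted lines mark the threshold of 1 in either direction.

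The list of serum amyloid A inducers, which also includes their receptors, signalling genes and feedback inhibitors, held 4 of the 8 calls. Of 20 tested genes, 4 rose (20%, against 0.69% of all genes tested) and 0 fell. At an unadjusted p under 0.05, 15 were higher (11.3% of all genes tested were), and the median log2 fold change was 0.94. SOCS3, the feedback inhibitor of interleukin-6 type cytokine signalling, had 50, 59 and 57 counts in normal and 453, 510 and 466 in PVR (log2 fold change 3.22 ± 0.21 (SE), adjusted p = 0.0013). CEBPD, a C/EBP factor that is itself induced in the acute phase, had 221, 303 and 228 counts in normal and 1713, 1482 and 2494 in PVR (log2 fold change 2.99 ± 0.17 (SE), adjusted p = 0.000652). For both genes the PVR samples were several times above the highest normal sample, and both stayed past the thresholds in all 15 other settings.

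NFKBIZ, an inducible NF-kB cofactor, rose from 5.29 ± 1.47 to 14.8 ± 1.88 CPM (SD, n = 3 in each group), a log2 fold change of 1.48 (adjusted p = 0.0332). It was past the thresholds in 10 of 15 other settings but not without either of normal replicates 1 and 2 or PVR replicates 1 and 2. STAT3, the transcription factor that interleukin-6 type cytokines activate, rose from 16.3 ± 0.487 to 39.6 ± 6.09 FPKM (SD, n = 3 in each group). Its log2 fold change was 1.21 (adjusted p = 0.00733), and 14 of 15 other settings passed, the exception being the fit that left out PVR replicate 1 (adjusted p = 0.0658). CEBPB, another C/EBP factor, was just outside the threshold at 1.51 in log2 (adjusted p = 0.051), and 3 of 15 other settings passed.

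The cytokines upstream were at low counts, and IL1A, IL6, TNF and OSM did not pass the filter. IL1B, which encodes interleukin-1 beta, had 1, 9 and 1 counts in normal and 42, 40 and 44 in PVR (log2 fold change 3.58 ± 0.78 (SE), adjusted p = 0.0718). LIF, an interleukin-6 type cytokine, had 6, 0 and 4 counts in normal and 65, 51 and 24 in PVR (log2 fold change 3.92 ± 0.91 (SE), adjusted p = 0.0792). Neither gene overlapped between the groups. All PVR samples lay above all normal samples for 14 of the 20 tested genes of the list, and for 13.4% of all genes tested. Neither IL1B nor LIF passed the test on all samples. IL6 had 3, 0 and 5 counts in normal and 2, 1 and 2 in PVR, so a difference was not detectable at this depth. Among the receptors, the log2 fold changes were 1.73 for IL6R (adjusted p = 0.147), 1.59 for IL1R1 (adjusted p = 0.0973) and 0.45 for the shared signal subunit IL6ST (adjusted p = 0.0532).

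Of 7 genes that serum amyloid A is known to induce, 6 were matched and 3 tested. The 1 that rose (33.3%, against 0.69% of all genes tested) was CXCL8. This neutrophil-attracting chemokine had 2, 25 and 1 counts in normal and 383, 405 and 369 in PVR, so normal replicate 2 was also above the other normal samples. Its log2 fold change was 5.47 ± 0.88 (SE), with an adjusted p of 0.0359. In 4 of 14 other settings it was not past the thresholds, including the fits without normal replicate 1, PVR replicate 1 or PVR replicate 2, and the adjusted p reached 0.202. IL18, a cytokine of the interleukin-1 family, was fitted at 2.97 in log2 (adjusted p = 0.165) and PTGS2, the inducible cyclooxygenase, at 0.49 (adjusted p = 0.433). CCL2, CCL20 and CSF3 did not pass the filter, and NLRP3 was not matched. In normal, CCL2 had 2, 2 and 8 counts, CCL20 0, 3 and 0, and CSF3 6, 2 and 10. In PVR, CCL2 had 9, 7 and 17 counts, CCL20 0 in every sample, and CSF3 7, 9 and 1. None of the 8 tested lipoprotein and protease genes was past the thresholds with edgeR, DESeq2 or limma-voom, and 1 had an unadjusted p under 0.05. In that list the fitted log2 fold change of ABCA1, which loads lipid onto apolipoproteins, was 0.56 (adjusted p = 0.0869), that of APOE 0.25 (adjusted p = 0.572), and those of the gelatinases MMP2 and MMP9 -0.21 and 1.69 (adjusted p = 0.299 and 0.327).

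Markers of the cells known to carry FPR2 or to make SAA3 were given the same test. Of 13 neutrophil symbols, 11 were matched and 7 tested, and S100A8, S100A9 and S100A12 rose, calcium-binding proteins that are abundant in neutrophils and monocytes. These were 42.9% of the 7, against 0.69% of all genes tested. S100A8 had 24, 5 and 2 counts in normal and 208, 209 and 136 in PVR (log2 fold change 4.27 ± 0.79 (SE), adjusted p = 0.0486). S100A9 and S100A12 had log2 fold changes of 2.96 and 3.21 (adjusted p = 0.0416 and 0.0342). None of the 3 passed with limma-voom or without any one of normal replicate 2, PVR replicate 1 and PVR replicate 2. The chemokine receptor genes CXCR1 and CXCR2 were fitted at 1.49 and 0.52 in log2 (adjusted p = 0.123 and 0.619), and LTF, the granule protein lactoferrin, at -1.67 (adjusted p = 0.461) with 2, 13 and 33 counts in normal and 3, 10 and 0 in PVR. The summed level of the 11 genes was 2.2 to 4.2 CPM in normal and 10.4 to 23.7 CPM in PVR. MPO and MMP8, granule proteins of neutrophils, had no count in any sample, and CSF3R, the receptor for granulocyte colony-stimulating factor, had at most 6. Whether neutrophils were present was not tested.

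Macrophage and microglia genes were fitted higher in PVR in 17 of 17 tested, but 0 were past the thresholds with edgeR and with limma-voom and 4 with DESeq2, while 10 had an unadjusted p under 0.05. Of all genes tested 48.9% were fitted higher and 21.2% had such a p. Their summed level was 43.5 to 91.4 CPM in normal and 116 to 158 CPM in PVR, and the lowest value was that of normal replicate 3, which also had the lowest SAA3 and no FPR2 count. The integrin genes ITGAM and ITGB2 had log2 fold changes of 1.62 and 1.78 (adjusted p = 0.0735 and 0.0995), and the microglial genes P2RY12 and CX3CR1 had 0.95 and 0.65 (adjusted p = 0.0602 and 0.189). In PVR replicates 1, 2 and 3 the macrophage and microglia genes summed to 141, 158 and 116 CPM. The neutrophil genes summed to 19.7, 23.7 and 10.4 CPM, and SAA3, at 24.6, 33.6 and 19.7 CPM, stood in the same order. FPR2 was at 1.53, 1.43 and 1.38 CPM, differences too small to be ordered at its depth. In normal replicates 1 and 2 the macrophage and microglia genes summed to 91.1 and 91.4 CPM, with SAA3 at 1.37 and 1.23 CPM. The part of neutrophil and macrophage or microglial RNA in the levels of SAA3 and FPR2 was not tested.

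Markers of platelets, the cells of the injected plasma, overlapped between the groups. The 6 matched platelet genes summed to 4.9 to 8.9 CPM in normal and 6.5 to 7.7 CPM in PVR, with 0 of 4 tested called by edgeR, DESeq2 or limma-voom and 0 at an unadjusted p under 0.05. TREML1 had no count, and PPBP, a platelet chemokine, had 1, 18 and 0 counts in normal and 11, 25 and 28 in PVR. Hepatocyte genes summed to 2.4 to 5.9 CPM in normal and 3.7 to 5.9 CPM in PVR, with ALB at 4 counts at most and 0 of 3 tested called by edgeR, DESeq2 or limma-voom and 0 at an unadjusted p under 0.05. Fibroblast genes were at 90.4 to 114 CPM in normal and 107 to 324 CPM in PVR, with COL1A1, a fibrillar collagen gene, at 1817, 190 and 4485 counts in PVR replicates 1, 2 and 3.

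The remaining lists gave calls in the other direction. GLUL, the glutamine synthetase of Mueller glia, fell, at -1.11 in log2 (adjusted p = 0.0125), LRAT, a visual cycle enzyme of the pigment epithelium, with -2.82 (adjusted p = 0.0459), and the endothelial genes CDH5 and VWF with -6.86 and -5.02 (adjusted p = 0.0301 and 0.0119). The fit without PVR replicate 1 called none of the 4. LRAT passed in 6 of 15 other settings, CDH5 in 9 of 14, VWF in 12 of 15 and GLUL in 13 of 15. CDH5 had low counts, with a mean log2 CPM of -1.87, and its log2 fold change was -8.71 to -0.39 over those settings. GFAP, the intermediate filament of reactive glia, was fitted at 1.39 in log2 (adjusted p = 0.143). Over all 11 marker lists 3 of 83 tested genes rose (3.61%) and 4 fell (4.82%), against 0.69% and 0.316% of all genes tested. Erythroid, photoreceptor and lens lists had none past the thresholds with edgeR and limma-voom, and 1 erythroid gene lower with DESeq2. At an unadjusted p under 0.05, 1 of 3, 5 of 9 and 1 of 8 tested genes were lower, against 1859 of all 18697. Summed erythroid levels were 29.1 to 34.1 CPM in normal and 12.6 to 21.8 CPM in PVR.

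**Figure D4:**
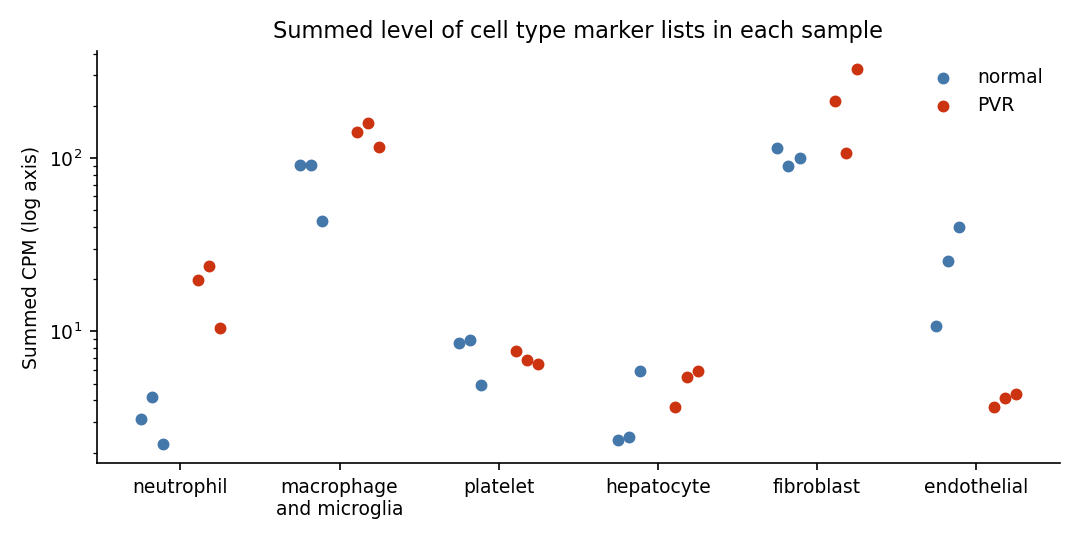
Summed CPM (y axis, log scale) of 6 cell type marker lists in the 3 normal (blue) and 3 PVR (red) samples. Neutrophil markers (2.2 to 4.2 against 10.4 to 23.7 CPM) and macrophage and microglia markers (43.5 to 91.4 against 116 to 158 CPM) do not overlap between the groups, whereas platelet, hepatocyte and fibroblast markers overlap. Endothelial markers do not overlap either, but are lower in PVR (10.7 to 39.8 against 3.6 to 4.3 CPM).

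Genes with the profile most like that of SAA3 and FPR2 were ranked by the root mean square difference of log2 CPM, each gene centred on its mean over the 6 samples, among 13547 other genes with a symbol. For SAA3 the nearest were MMP12 (0.75), S100A8 (0.90), CXCL8 (1.03), FPR2 (1.05) and IDO1 (1.07). For FPR2 they were MMP12 (0.43), ANXA10 (0.55), CP (0.60), FPR1 (0.62) and S100A8 (0.62), and SAA3 stood at position 38. MMP12, macrophage elastase, was thus nearest to both, with 6, 2 and 0 counts in normal and 108, 105 and 131 in PVR. IDO1, an enzyme of tryptophan breakdown, had 13, 5 and 1 counts in normal and 74, 132 and 53 in PVR, with PVR replicate 2 highest and replicate 3 lowest, the same order in these samples as SAA3. The ranking uses the contrast by which SAA3 and FPR2 were chosen and is a description.

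**Figure D5:**
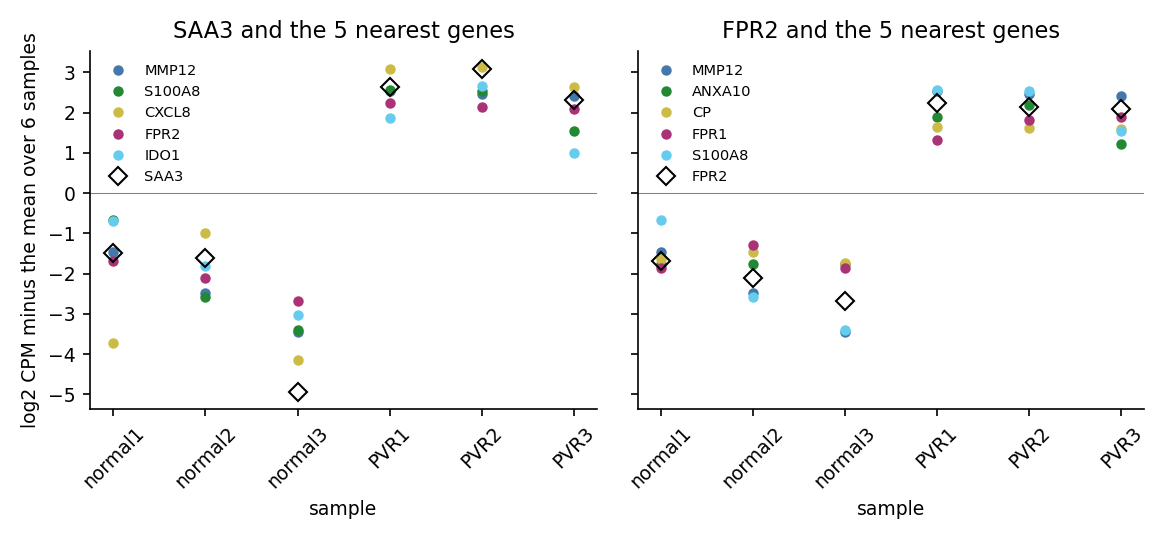
log2 CPM minus its mean over the 6 samples (y axis) in each sample (x axis) for SAA3 (left) and FPR2 (right), shown as open diamonds, with the 5 nearest genes as coloured points. SAA3 lies furthest below the others in normal replicate 3, where it had 3 counts.

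For the neighbours of SAA3 and FPR2, 10 annotated genes on either side were taken from the gene order of another assembly than that of the files, mOryCun1.1 of RefSeq. Around SAA3, 16 of these genes are in the files, 12 were tested, and 0 were past the thresholds in edgeR. Of the 12, 3 had an unadjusted p under 0.05, near the share of 21.2% over all genes, limma-voom called 0 and DESeq2 called 1, the lactate dehydrogenase gene LDHA. SAAL1, a separate gene named for its similarity to serum amyloid A, was fitted at -0.09 in log2 (adjusted p = 0.494). LOC127487669, a non-coding RNA that overlaps SAA3 there, had at most 3 counts. Around FPR2, 11 genes are in the files and 8 were tested, and FPR1, the next gene on 1 side, was called. HAS1, a hyaluronan synthase beyond FPR1, was fitted at 0.64 in log2 (adjusted p = 0.31). The non-coding RNA LOC138846678 overlaps FPR2 in that assembly and was not analysed here, and since the strand setting of the counting is not given, reads from overlapping genes cannot be told apart.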

How the data were processed

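Retinal RNA from 3 normal and 3 PVR samples was analysed, grouped by the sample titles. The authors trimmed reads with fastp, aligned them to OryCun2.0 with HISAT2 and deposited raw counts per gene from htseq-count. The annotation release and strand setting are not given in the sources used here. The study's methods and the labels name different library kits. The authors also deposited FPKM values, which rest on the same counts.

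Counts were tested with edgeR 4.0.16 in R 4.3.3 (TMM factors, default filter on low counts, quasi-likelihood test with condition as the only term, Benjamini-Hochberg adjustment over 18697 genes). Genes were called beyond a log2 fold change of 1 at adjusted p under 0.05. The alternatives were DESeq2 1.42.0, limma 3.58.1, other factors and filters, the replicate number as a block, and each sample left out. Tests were checked on simulated counts. SAA3, FPR2 and all gene lists were chosen with earlier results of these data known, so no list was tested as a set. Every called pathway gene and any other list gene could be named, with GAPDH and the 5 nearest profiles. Genes were matched by symbol or through RefSeq identifiers and synonyms. For FPR2 a ratio with a counting interval replaced the planned lower bound, because the normal samples held 3 counts. Sequences of SAA3 and FPR2 were not used here.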

Additional observations from a re-analysis of the deposited data

How the results depend on the processing

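SAA3 and FPR2 stayed higher in PVR in every fit that held them. The fit on genes reaching 10 counts in each sample held neither. The SAA3 log2 fold change was between 4.32 and 5.58, a move below the spread between replicates. The FPR2 log2 fold change was 0.50 on the log2(FPKM + 1) scale and 2.30 on the log2(FPKM + 0.1) scale, where the pseudocount exceeds its level in normal samples, and 5.10 to 6.503 with single samples left out. The numbers of genes moved more. Higher genes, 129 in all, were 519 with DESeq2, 68 with limma on log2(FPKM + 1), 56 with the replicate block and 16 to 373 with single samples left out. Lower genes, 59 in all, were 212, 19 and 26 in the same 3 fits, 37 with limma-voom, 31 with the 10-count minimum and 6 to 159 with single samples left out. Pathway genes that rose, 8 in all, were 17 with DESeq2, 5 with the replicate block, 5 with the 10-count minimum and 3 to 8 with single samples left out. Marker genes that rose, 3 in all, were 8 with DESeq2, 0 with limma-voom, 1 with the 10-count minimum and 0 to 6 with single samples left out, the 6 being lens genes without normal replicate 2. Marker genes that fell, 4 in all, were 7 with DESeq2, 1 and 2 on the log2(FPKM + 1) and log2(FPKM + 0.1) scales, 2 with limma-voom and 0 to 5 with single samples left out. The cause of these differences was not tested. Deviations from the group mean had r across genes of -0.01, 0.07 and 0.04 for same-numbered samples. Normal replicate 2 with PVR replicate 3 had -0.08. With only 3 samples per group, these values cannot show whether same-numbered samples share an animal or a batch. The sign turned for genes near 0 that were not called. TLR2 was 0.0014 and 0.017 on the 2 FPKM scales and -0.32 to 0.048 with single samples left out, positive without normal replicate 1 or 2 (0.042). With single samples left out C3 was -0.10 to 0.58 (-0.02 without normal replicate 3), LY96 was -0.45 to 0.017 and P2RX7 -0.17 to 0.25 (-0.14 without PVR replicate 2). Single samples decided several calls, and FPR1 lost its call without any of them.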

Other observations

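LDHA, which encodes the A subunit of lactate dehydrogenase and is the tenth annotated gene from SAA3 in the mOryCun1.1 order, was singled out after its values were seen. It had 18187 and 16526 counts in normal replicates 1 and 2, 334 in normal replicate 3, and 216, 166 and 281 in the PVR samples. Normal replicate 3 was thus at the level of the PVR samples in LDHA, whereas SAA3 was lower in it, at 3 counts, than in any other sample. Of the genes between them, GTF2H1 had 2122 to 2591 counts and HPS5 1023 to 1444 counts in all 6 samples. The log2 fold change of LDHA was -5.66 with an adjusted p of 0.0744 from edgeR (3.68e-05 to 0.372 over 15 other settings, and 3.68e-05 without normal replicate 3). The values are given without an explanation, which was not tested.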
